A study of Mus musculus with 44 samples.

Results

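The comparison followed here was the shift in the dorsal hippocampus of wild-type (WT) mice between 1 h and 3 h after fear conditioning, across all genes. It rests on 12 libraries, 6 at 1 h and 6 at 3 h, out of the 36 libraries with a gene count file and the 44 samples the series describes. The 12 were taken by their labels alone (WT, second cohort, 1 h or 3 h post-US), and no measured value chose them.

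The series follows WT and homozygous Kdm5bDARID/DARID mice, which carry a deletion in the histone demethylase gene Kdm5b, through memory formation. All mice were F2 animals of a C57BL/6J by 129S2/Sv cross, 7 to 8 weeks old. Trained mice explored a chamber for 148 s and then received 3 foot shocks of 0.7 mA, each lasting 2 s, and were killed 1 h or 3 h later. Naive home cage mice served as the 0 h group. WT mice carried no such deletion. Each library came from 1 mouse, and each group of 6 held 3 mice labelled male and 3 labelled female. An untrained group at 1 h or 3 h was not analysed here, so time after training and time since handling or time of day cannot be told apart.

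Neuronal activity first switches on immediate early genes, which need no new protein synthesis and many of which encode transcription factors. Their transcripts are short-lived. Their protein products then act on a slower set of delayed genes that shape synapses and memory storage. In a stressful task such as foot shock, glucocorticoids released into the blood also act on the hippocampus through nuclear receptors. Dorsal hippocampus is a mixed tissue of granule and pyramidal neurons, interneurons, glia and vessels. In such bulk RNA, fewer cells of a type and less RNA per cell cannot be told apart.

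Library totals were 58949667 to 71274535 counts at 1 h and 70992683 to 107000233 counts at 3 h, so depth was higher at 3 h. Markers of dentate granule, CA1 and CA2/CA3 neurons were present in every library, and none of the 13 marker lists had a member at 0 in all 12. Choroid plexus markers varied most, from a summed 119 to 4751 CPM (counts scaled to library size) at 1 h and from 49.7 to 8491 CPM at 3 h. Depth, which moves with time here, was not tested as a part of any result.

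Of the libraries used, 2 went against their sex labels, in opposite ways. In the library labelled WT 1 h male 1 there were 51186 counts of Xist, the transcript of the inactive X chromosome, and 0 counts of 4 Y-linked genes. In that labelled mutant 3 h female 2 there were 36 counts of Xist and 10239 counts of those Y-linked genes. Their Fos levels also stood apart, at 11.7 CPM against 19.2 to 34.4 CPM in the other 5 WT libraries at 1 h, and at 43.9 CPM against 6.42 to 11.6 CPM in the other 5 mutant libraries at 3 h. Kdm5b itself was at 79.6 CPM in the first, below the 90 to 97.1 CPM of its group, and at 93.5 CPM in the second, above the 77.5 to 86.2 CPM of its group. Whether these libraries carry another sample's label was not tested. Their labels were kept in the main comparisons.

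No gene passed the threshold. Counts were compared with edgeR's quasi-likelihood test with labelled sex as a covariate, and an adjusted p (Benjamini-Hochberg over all 17388 genes tested) under 0.05 was required. The share of genes called was 0%, and the smallest adjusted p was 0.25, for S100a16. At an unadjusted p under 0.05, 551 genes were higher at 3 h (3.17% of those tested) and 737 were lower (4.24%). DESeq2, with the same sex term, called 20 genes higher (0.115%) and 45 lower (0.259%) on the same libraries. The WT values below, where all 12 libraries were used, are therefore differences that edgeR did not call.

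The shift was small for most genes. The median log2 fold change over all genes was 0.002, its median absolute size 0.07 and the median standard error (SE) 0.085. Of 11876 genes with a mean of at least 5 CPM at either time, 72 differed by more than 0.5 on the log2 scale, 30 of them at an unadjusted p under 0.05. Only 7 differed by more than 1, of which Egr2, Fos, Pcdhgb8 and Rpl30 had such a p and Xist (-3.69, SE 2.98, p 0.246), Rpl3 (p 0.0631) and Plin4 (p 0.0816) did not. Xist is the gene whose counts went against the label in 1 of the 12 libraries. The 6 libraries at 3 h lay wholly above the 6 at 1 h for 29 genes (0.167%) and wholly below for 43 (0.247%). Once the library labelled WT 1 h male 1 was left out, 639 genes were higher at an unadjusted p under 0.05 (3.65%) and 832 lower (4.75%), edgeR called 1 gene higher and 2 lower, and DESeq2 called 51 (0.291%) and 146 (0.833%). Over all 12 libraries left out in turn, 2.53% to 3.67% of genes were higher and 3.27% to 4.75% lower at an unadjusted p under 0.05.

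**Figure D1:**
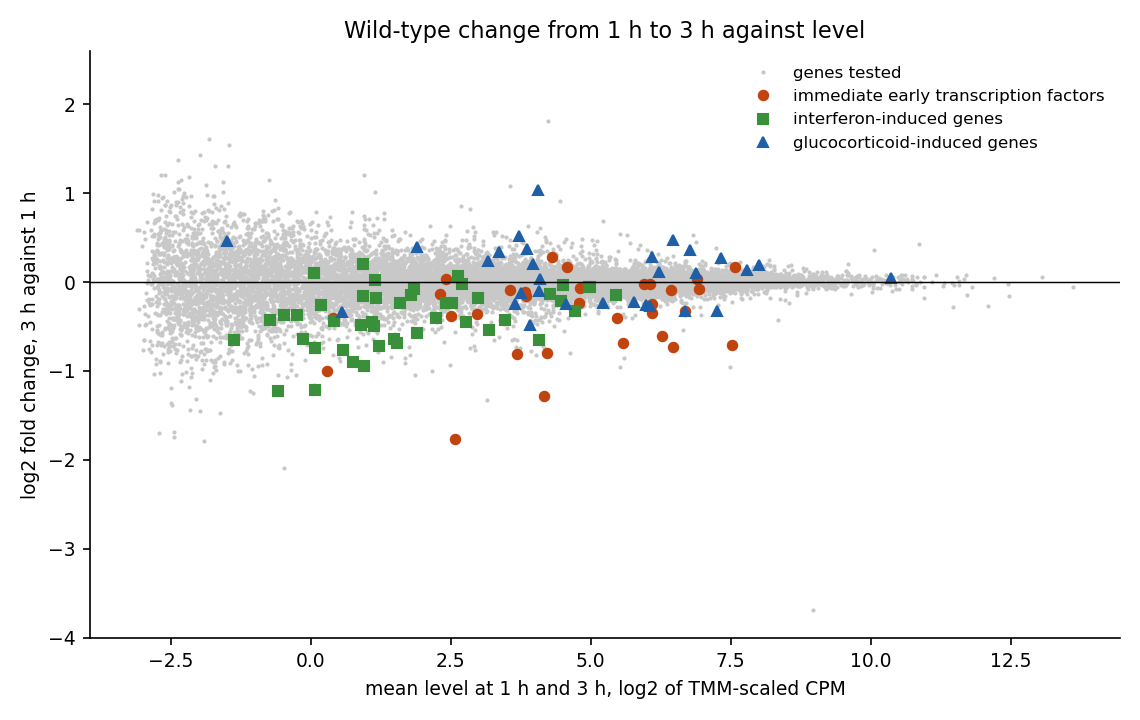
The plot shows the log2 fold change of 3 h against 1 h (vertical axis) against the mean level at both times in log2 CPM (horizontal axis) for the 17388 genes tested in WT mice, with members of 3 gene lists in colour. Most genes lie near 0, while immediate early transcription factors (median -0.29) and interferon-induced genes (median -0.37) lie mostly below it.

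Immediate early transcription factors were mostly lower at 3 h. Of 32 members tested out of 33 listed, 27 had a log2 fold change below 0, 14 were lower at an unadjusted p under 0.05, and 2, Jund and Cebpd, were higher. The list median was -0.29, against 0.002 for all genes. edgeR called none, and DESeq2 called Fosb and Atf3. Leaving out each library in turn gave 11 to 17 members lower, and the median ran from -0.35 to -0.24. Without the library labelled WT 1 h male 1 the count was 17 and the median -0.34, edgeR again called none, and DESeq2 called 12, all lower.

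Fosb and Fos encode partners of the AP-1 transcription factor. Fosb (chromosome 7, 19302696 to 19310118 in GRCm38.p6) measured 15.85, 23.7 and 30.3 CPM at 1 h (lowest, median and highest library) and 9.47, 13.6 and 18.2 CPM at 3 h. The ranges overlapped, with 5 of 6 libraries at 3 h below every library at 1 h. The log2 fold change was -0.79 (SE 0.18, edgeR p 0.00084, adjusted p 0.406), and DESeq2 gave an adjusted p of 0.00251. Fos (chromosome 12, 85473890 to 85477274) measured 11.7, 28.6 and 34.4 CPM at 1 h and 4.86, 10.5 and 17.3 CPM at 3 h, with 3 libraries at 3 h below all at 1 h. The difference was -1.29 on the log2 scale (SE 0.37, edgeR p 0.00621, adjusted p 0.489). DESeq2 called Fos once WT 1 h male 1 was left out (log2 fold change -1.41, adjusted p 0.0225; edgeR adjusted p 0.268).

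In the EGR zinc finger factors and the nuclear receptor Nr4a1, the library labelled WT 1 h male 1 lay apart from the rest of its group. With all 12 libraries Egr2 had the largest fold change of the list, -1.77 (SE 0.58, edgeR p 0.0128, adjusted p 0.561), from 1.60, 9.94 and 13.9 CPM at 1 h to 0.709, 2.71 and 5.93 CPM at 3 h. Its lowest value at 1 h, 1.60 CPM, came from that library, and without it the fold change was -1.96 (DESeq2 adjusted p 0.0187). Egr1 went from 106, 259 and 279 CPM to 99.4, 145 and 169 CPM (log2 fold change -0.70, SE 0.24, p 0.0161, edgeR adjusted p 0.568). Again that library was the lowest at 1 h, and without it the fold change was -0.85 (DESeq2 adjusted p 0.000906). Nr4a1 went from 49.0, 115 and 163 CPM to 54.6, 62.8 and 86.2 CPM (-0.73, SE 0.26, p 0.0198, edgeR adjusted p 0.583), and the library labelled WT 1 h male 1 was the only one at 1 h below the 3 h range. Without it the value was -0.88 (DESeq2 adjusted p 0.00287). The edgeR adjusted p of the 3 genes then ran from 0.160 to 0.257. Averaged over the list, the difference of its members from their mean was -0.165 on the log2 scale in this library and 0.068 to 0.453 in the other 5 libraries at 1 h.

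Npas4, a transcription factor induced by calcium entry into neurons, measured 9.89, 16.2 and 23.2 CPM at 1 h and 5.56, 8.35 and 17.95 CPM at 3 h. Of the 6 libraries at 3 h, 5 lay below the whole 1 h range, and 1 labelled female lay inside it at 17.95 CPM. The log2 fold change was -0.81 (SE 0.29, edgeR p 0.0189, adjusted p 0.581). DESeq2 did not call Npas4 with all libraries (adjusted p 0.291) or without WT 1 h male 1 (adjusted p 0.338). Atf3, a stress-responsive factor, had a low level, at 0.833, 1.73 and 2.07 CPM at 1 h and 0.569, 0.707 and 1.23 CPM at 3 h, a difference of -1.0 on the log2 scale (SE 0.24, edgeR p 0.000897, adjusted p 0.408; DESeq2 adjusted p 0.0285).

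Immediate early effectors are rapidly induced genes that are not themselves DNA-binding factors, many of them acting at the synapse or in signalling. Of 42 tested, 33 lay below 0 and 16 were lower at an unadjusted p under 0.05, against 2 higher (Dusp14 and Rhob), with a list median of -0.14. DESeq2 called 5 of them, F3, Sik1, Apold1, Gem and Gadd45b, all lower. Leaving out each library gave 11 to 18 lower, and without the library labelled WT 1 h male 1 DESeq2 called 14 lower and 1 higher. The tissue factor gene F3 (chromosome 3, 121723537 to 121735052) had the smallest p. It measured 32.1, 40.6 and 43.7 CPM at 1 h and 27.5, 31.7 and 33.8 CPM at 3 h (log2 fold change -0.34, SE 0.06, edgeR p 7.5e-05, adjusted p 0.261; DESeq2 adjusted p 0.000784). Without the library labelled WT 1 h male 1 the edgeR adjusted p of F3 was 0.0415.

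Sik1, a kinase that restrains CREB coactivators, measured 11.15, 16.4 and 19.2 CPM at 1 h and 7.91, 10.02 and 11.8 CPM at 3 h. All but 1 library at 3 h lay below the 1 h range (log2 fold change -0.65, SE 0.14, edgeR p 0.000368, adjusted p 0.373; DESeq2 adjusted p 0.00295). Arc, which is needed for the internalization of AMPA receptors, measured 113, 234 and 372 CPM at 1 h and 88.2, 111 and 167 CPM at 3 h. Only 3 libraries at 3 h were below all at 1 h, and the log2 fold change was -0.95 (SE 0.31, edgeR p 0.0125, adjusted p 0.553). Once WT 1 h male 1 was left out, Arc stood at -1.08 (DESeq2 adjusted p 0.016, edgeR adjusted p 0.260). Bdnf, a secreted neurotrophin, was at 47.2, 55.7 and 59.9 CPM at 1 h and 45.9, 53.4 and 63.4 CPM at 3 h. Its log2 fold change of -0.03 (SE 0.08, edgeR p 0.688, adjusted p 0.963) was smaller than its error.

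**Figure D2:**
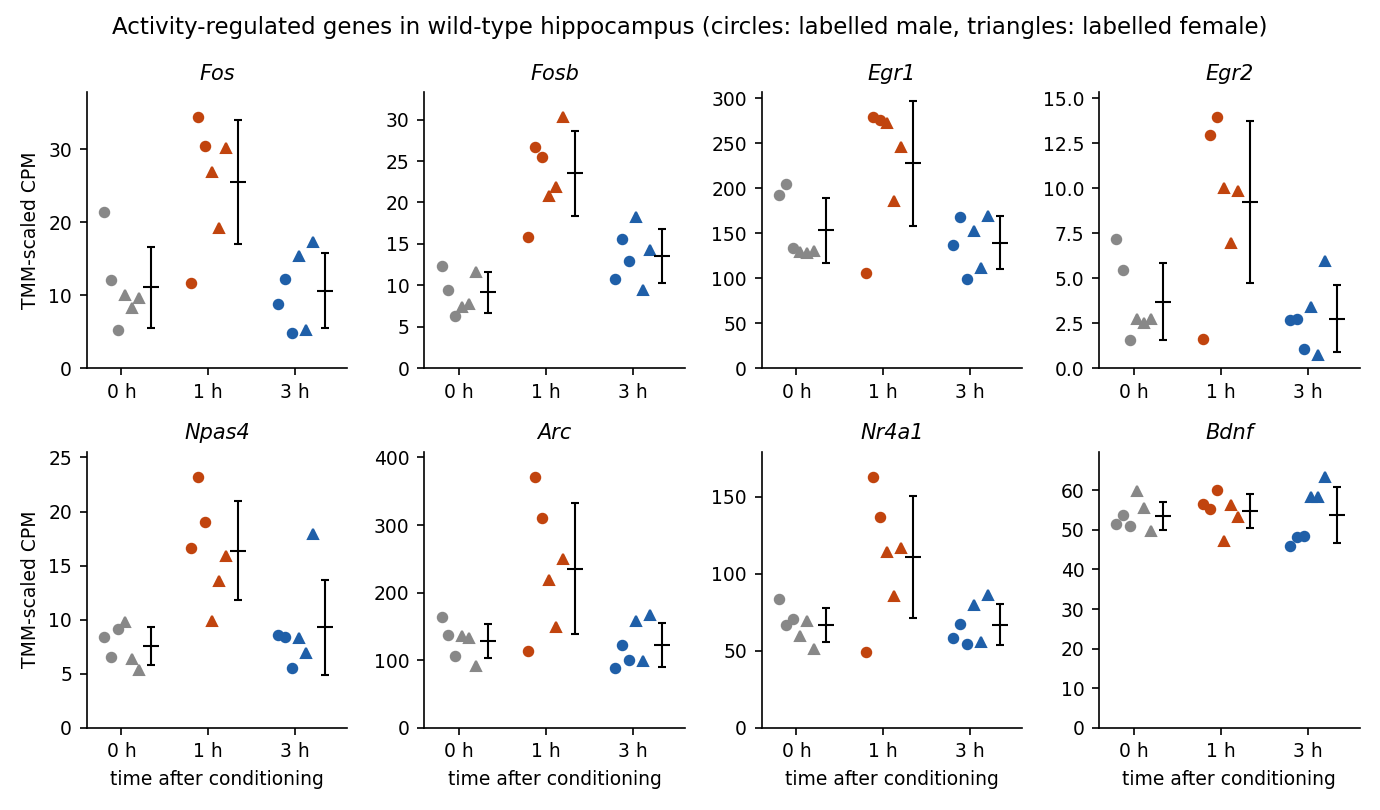
Each panel plots the level of 1 activity-regulated gene in TMM-scaled CPM (vertical axis) in each WT library at 0 h, 1 h and 3 h; circles are labelled male, triangles labelled female, and bars give the mean and SD of 6 libraries. Fos ranges from 11.7 to 34.4 CPM at 1 h and from 4.86 to 17.3 CPM at 3 h, while Bdnf lies between 45.9 and 63.4 CPM at both times.

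Set beside naive mice, 28 of the 32 immediate early transcription factors had a 1 h mean above the 0 h mean, and 21 had a 3 h mean above it. Among the 27 with a log2 fold change below 0, 26 had a 1 h mean above the 0 h mean. Of those 26, 9 had a 3 h mean at or under the 0 h mean. The 27 were picked by the same 1 h and 3 h values, which favours such counts. The share over all genes was not taken. Fos had a median of 9.84 CPM at 0 h and 10.5 CPM at 3 h, and Arc 135 CPM at 0 h and 111 CPM at 3 h. Fosb had a median of 8.61 CPM at 0 h and a higher one of 13.6 CPM at 3 h. These levels are given without a test.

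Promoters of the genes that were lower together are shown because CREB, the factor that answers calcium and cyclic AMP, binds the letters TGACG. RefSeq's promoter table (GRCm38.p6) held 24 of the immediate early transcription factors tested, and the 250 bases before the first transcript start it lists for each gene were read. For a gene with several starts that window can lie inside the gene. TGACG on either strand lay in 17 of them (70.8%), against 25.0% of 13007 promoters of genes tested and 17.9% of all 27025 promoters. The full palindrome TGACGTCA, which holds TGACG, lay in 0 of the 24, against 2.54% of promoters of genes tested. These are matches of letters and not measured binding. Only promoters with a match are printed, and the window of Egr2 held none. In the following sequences, written 5′ to 3′ on the coding strand, capitals mark TGACG or its reverse complement CGTCA. Fos is at chr12:85473640-85473889 (plus strand), Atf3 at chr1:191183334-191183583 (minus) and Nr4a1 at chr15:101266596-101266845 (plus). The Nr4a1 window lies inside the annotated span of the gene (chromosome 15, 101253902 to 101274795), so it is not the stretch before the outermost start.
Fos: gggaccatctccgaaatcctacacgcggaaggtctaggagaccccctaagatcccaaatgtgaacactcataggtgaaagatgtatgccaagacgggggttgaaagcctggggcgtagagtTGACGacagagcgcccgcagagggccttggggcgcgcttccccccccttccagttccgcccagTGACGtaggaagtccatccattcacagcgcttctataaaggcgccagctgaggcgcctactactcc
Atf3: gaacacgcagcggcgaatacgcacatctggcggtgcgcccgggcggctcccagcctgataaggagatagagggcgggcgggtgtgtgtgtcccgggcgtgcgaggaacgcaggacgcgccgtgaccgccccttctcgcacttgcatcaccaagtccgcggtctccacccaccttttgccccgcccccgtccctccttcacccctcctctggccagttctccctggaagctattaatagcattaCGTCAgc
Nr4a1: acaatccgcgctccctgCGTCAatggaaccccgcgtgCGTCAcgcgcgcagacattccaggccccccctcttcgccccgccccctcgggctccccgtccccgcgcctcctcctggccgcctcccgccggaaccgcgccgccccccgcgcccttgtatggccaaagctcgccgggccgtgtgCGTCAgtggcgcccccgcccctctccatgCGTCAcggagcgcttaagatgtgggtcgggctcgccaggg

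Delayed activity genes, which include targets of the factors above, lay nearer 0. Of 40 tested, 26 lay below 0, 5 were lower and 1 higher at an unadjusted p under 0.05, and the median was -0.06. Leaving out each library gave 3 to 7 lower, and DESeq2 called 1 lower with all libraries and 2 without WT 1 h male 1. Baz1a, a chromatin remodelling subunit, had no overlap between times, at 2.18, 2.35 and 2.59 CPM at 1 h and 1.33, 1.58 and 2.09 CPM at 3 h (log2 fold change -0.55, SE 0.13, edgeR p 0.000768, adjusted p 0.381). DESeq2 called it, with an adjusted p of 0.0243. Crhbp, which binds corticotropin-releasing hormone, had 3 of 6 libraries at 3 h below the 1 h range (log2 fold change -0.24, SE 0.06, edgeR p 0.00195, adjusted p 0.413).

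Interferon-induced genes were mostly lower at 3 h as well, with a list median of -0.37. Of 45 tested out of 47 listed, 41 lay below 0, 18 were lower at an unadjusted p under 0.05 and 0 were higher. edgeR called none, and DESeq2 called Gbp9, Gbp5, Gbp6 and Rnf213. Leaving out each library in turn gave 15 to 22 lower and a median from -0.45 to -0.30, and without the library labelled WT 1 h male 1 DESeq2 called 8, all lower.

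The guanylate binding proteins, GTPases of cell-intrinsic immunity, led the list. Gbp9 (chromosome 5, 105076464 to 105110357) measured 1.77, 2.51 and 3.77 CPM at 1 h and 0.773, 1.44 and 1.55 CPM at 3 h, and the times did not overlap. Its log2 fold change was -0.94 (SE 0.19, edgeR p 0.000262, adjusted p 0.318; DESeq2 adjusted p 0.00413). Gbp5 (chromosome 3, 142496934 to 142522344) measured 1.38, 1.94 and 2.13 CPM at 1 h and 0.76, 1.16 and 1.44 CPM at 3 h (log2 fold change -0.77, SE 0.17, edgeR p 0.000608, adjusted p 0.373; DESeq2 adjusted p 0.0175). All but 1 of its 3 h libraries lay below the 1 h range. Gbp genes are close copies of each other, and reads shared between copies could be split or lost in counting.

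Most interferon-induced genes ended at or below the naive level. Over all 45 tested, 34 had a 1 h mean above the 0 h mean, and 6 had a 3 h mean above it. Among the 41 below 0, 33 had a 1 h mean above the 0 h mean, and 29 of those 33 had a 3 h mean at or under it. The 41 were picked by the same 1 h and 3 h values, which favours such counts. The share over all genes was not taken. Averaged over the list, members stood between -0.113 and 0.149 of their mean on the log2 scale at 0 h, between -0.081 and 0.621 at 1 h and between -0.382 and -0.010 at 3 h. The highest value, 0.621, came from the library labelled WT 1 h female 2. Microglia markers were lower too, with 11 of 12 below 0, 6 lower at an unadjusted p under 0.05 and a median of -0.14. Without the library labelled WT 1 h male 1 or without WT 3 h female 1, 3 of them were lower. Their summed level was 373.7 to 464.96 CPM at 1 h and 350.7 to 447.9 CPM at 3 h. Endothelial markers summed to 259.1 to 292.4 CPM at 1 h and 240.4 to 280.3 CPM at 3 h, with 3 of 15 lower (5 without WT 3 h male 3). Oligodendrocyte markers had 12 of 12 below 0 with 1 lower (median -0.15; 3 lower and -0.24 without WT 3 h male 2, and -0.07 without WT 1 h female 1 or WT 3 h female 2), and summed to 6286 to 9601 CPM at 1 h and 5085 to 9399 CPM at 3 h. The part of these cell types in the interferon result was not tested.

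Promoters of this list were read because factors that answer interferon bind spaced GAAA repeats. GAAANNGAAA, in which N is any base, lay on either strand in 17 of 36 promoters available (47.2%), against 2.58% of promoters of genes tested and 3.04% of all promoters. Rnf213, a member that DESeq2 called, held no match. The promoter printed is that of Ddx60, an RNA helicase gene induced by interferon that is outside the list and the 36 promoters. It holds 2 matches at chr8:61927837-61928086 (plus strand), which capitals mark. The last bases of this window overlap the annotated span of the gene, which begins at 61928073.
Ddx60: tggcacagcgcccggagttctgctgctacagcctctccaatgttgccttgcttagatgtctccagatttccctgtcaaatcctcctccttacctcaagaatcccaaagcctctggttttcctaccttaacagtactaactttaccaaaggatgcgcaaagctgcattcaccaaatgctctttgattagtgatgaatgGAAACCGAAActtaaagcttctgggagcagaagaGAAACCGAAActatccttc

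**Figure D3:**
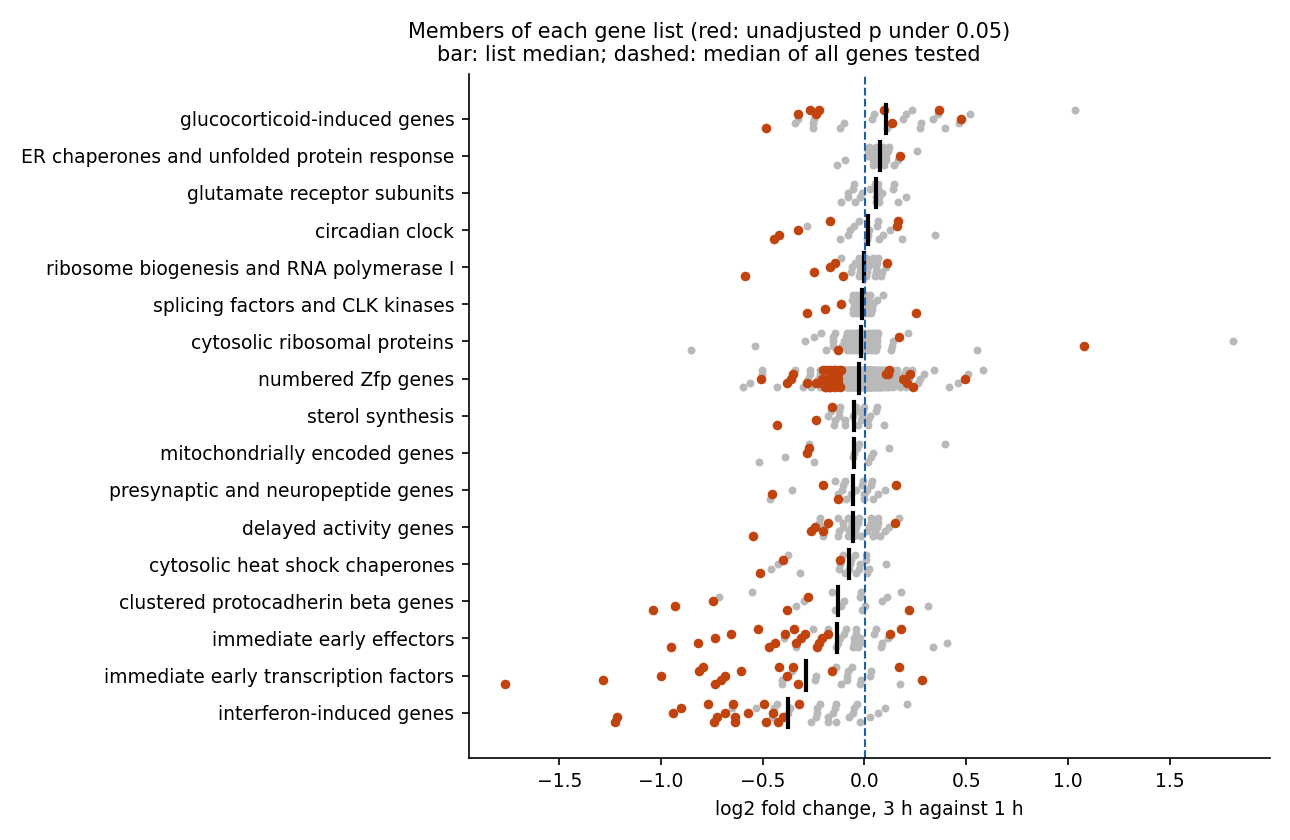
Each row shows the log2 fold change of 3 h against 1 h (horizontal axis) for the tested members of 1 gene list in WT mice; red points have an unadjusted p under 0.05, bars mark list medians and the dashed line the median of all genes (0.002). Interferon-induced genes and immediate early transcription factors have the lowest medians (-0.37 and -0.29).

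Glucocorticoid-induced genes split in both directions. Of 30 tested, 18 lay above 0 with a median of 0.10, and at an unadjusted p under 0.05 4 were higher (Fkbp5, Ppm1h, Klf9 and Sgk3) and 5 lower. These counts depended on single libraries. Leaving out each in turn gave 2 to 9 higher and 3 to 7 lower, with 9 higher and a median of 0.18 without the library labelled WT 1 h female 3, and 2 higher and a median of 0.02 without WT 3 h male 2. Fkbp5, a co-chaperone that feeds back on the glucocorticoid receptor (chromosome 17, 28398753 to 28486149), measured 57.8, 72.5 and 87.7 CPM at 1 h and 82.6, 99.1 and 128 CPM at 3 h. Of 6 libraries at 3 h, 4 were above the whole 1 h range (log2 fold change 0.47, SE 0.11, edgeR p 0.00129, adjusted p 0.408; DESeq2 adjusted p 0.00778). Among those lower was Tob2, an antiproliferative regulator of messenger RNA decay, at 34.4, 39.8 and 49.8 CPM at 1 h and 31.5, 33.2 and 40.3 CPM at 3 h (-0.24, SE 0.08, edgeR p 0.0109, adjusted p 0.547). Per1, which is also an immediate early gene, differed by -0.33 on the log2 scale (SE 0.11, edgeR p 0.0132, adjusted p 0.561). With WT 1 h male 1 left out, the value for Per1 was -0.39 (adjusted p 0.0158 by DESeq2 and 0.249 by edgeR), that for Tob2 -0.30 (DESeq2 adjusted p 0.0146), and DESeq2 called 5 genes of the list lower and 1 higher.

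The circadian clock list had a median of 0.016, with 4 genes lower and 2 higher at an unadjusted p under 0.05, or 2 to 5 lower and 0 to 4 higher as each library was left out. DESeq2 called 1 lower, and with WT 1 h male 1 left out 3 lower and 1 higher. Rorb, a nuclear receptor of the clock loop that also marks cortical neurons, had the smallest p. It measured 19.1, 21.7 and 26.6 CPM at 1 h and 14.1, 15.97 and 20.3 CPM at 3 h, with 5 libraries at 3 h below the 1 h range (log2 fold change -0.44, SE 0.08, edgeR p 0.000141, adjusted p 0.272; DESeq2 adjusted p 0.00213). The neocortex marker list, Rorb left out, summed to 434.4 to 570.4 CPM at 1 h and 472.6 to 646.1 CPM at 3 h.

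Across all genes, the smallest p was that of S100a16, a calcium-binding protein (chromosome 3, 90537254 to 90543151). It measured 51.1, 55.7 and 60.1 CPM at 1 h and 44.3, 45.8 and 49.9 CPM at 3 h. The times did not overlap, and the log2 fold change was -0.25 (SE 0.04, edgeR p 1.44e-05, adjusted p 0.25; DESeq2 adjusted p 1.43e-05). The transcription factors of neural progenitors Sox21 and Nr2e1 had log2 fold changes of -0.44 (SE 0.08, p 5.46e-05; DESeq2 adjusted p 0.000323) and -0.38 (SE 0.07, p 0.000135; DESeq2 adjusted p 0.00213). S1pr1, a sphingosine phosphate receptor of astrocytes and endothelium, was at 119, 137 and 150 CPM at 1 h and 91.9, 111 and 129 CPM at 3 h (-0.28, SE 0.05, p 0.000117; DESeq2 adjusted p 0.00218). It was the only 1 of 12 astrocyte markers lower at an unadjusted p under 0.05, and the list's median was -0.03.

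Utp14b and Pprc1 led the ribosome biogenesis list (median -0.001, 5 lower and 1 higher of 34). Utp14b, a small-subunit processing factor (chromosome 1, 78657825 to 78667601), measured 6.53, 9.34 and 9.85 CPM at 1 h and 5.28, 5.95 and 6.51 CPM at 3 h (log2 fold change -0.59, SE 0.10, edgeR p 4.32e-05, adjusted p 0.253; DESeq2 adjusted p 0.000133). Without the library labelled WT 1 h female 2 edgeR called Utp14b (log2 fold change -0.66, adjusted p 0.0429). Utp14b overlaps Acsl3 in the annotation, so reads may be shared. Pprc1, a coactivator of growth-related transcription, measured 27.9, 30.8 and 32.5 CPM at 1 h and 23.9, 26.1 and 26.5 CPM at 3 h (-0.25, SE 0.04, p 5.82e-05; DESeq2 adjusted p 0.000294), with no overlap. Tprkb (-0.23, p 0.000103) and Rasa2 (-0.25, p 0.000207), a regulator of RAS, also showed no overlap between times; Tprkb overlaps Nat8f1. DESeq2 called both, with adjusted p of 0.00213 and 0.00543.

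Among genes higher at 3 h, Ppp1r10 had the smallest p. It encodes a nuclear targeting subunit of protein phosphatase 1 and measured 55.3, 58.9 and 64.9 CPM at 1 h and 66.1, 71.2 and 76.9 CPM at 3 h. All 6 libraries at 3 h were above the 1 h range (log2 fold change 0.26, SE 0.05, edgeR p 0.000165, adjusted p 0.286; DESeq2 adjusted p 0.00218). Lcmt2, a tRNA-modifying enzyme that overlaps Adal, measured 4.90, 6.46 and 7.63 CPM at 1 h and 7.39, 9.12 and 9.74 CPM at 3 h (0.52, SE 0.10, p 0.000227; DESeq2 adjusted p 0.00213). Without the library labelled WT 1 h male 1, its edgeR adjusted p was 0.0415.

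The remaining higher genes by rank were moderate in size. Esrrb, an orphan nuclear receptor, measured 1.60, 1.78 and 2.53 CPM at 1 h and 2.24, 2.99 and 4.21 CPM at 3 h (0.71, SE 0.15, p 0.000467; DESeq2 adjusted p 0.011). Map3k5, a stress-activated kinase, measured 34, 35.8 and 38.9 CPM at 1 h and 39.6, 40.7 and 43.6 CPM at 3 h, with no overlap (0.20, SE 0.04, p 0.000575; DESeq2 adjusted p 0.011). Znhit2 (0.25, p 0.000686) and the clone-named gene 4930413G21Rik (0.29, p 0.000272), which overlaps Rbbp6, also had no overlap between times. Sdk2 (0.35, p 0.000586), a cell adhesion gene, Asic2 (0.22, p 0.00108), an acid-sensing channel subunit, and D430041D05Rik (0.20, p 0.00109) each had 5 of 6 libraries at 3 h above the 1 h range. Pde10a (0.24, p 0.00104), a phosphodiesterase abundant in striatum, had 3. DESeq2 called all 6 genes from Znhit2 to Pde10a, with adjusted p from 0.00543 (4930413G21Rik) to 0.0365 (Asic2 and D430041D05Rik). Pde10a is itself 1 of 13 striatum markers, of which 6 lay above 0, and without it the rest summed to 144.5 to 169.9 CPM at 1 h and 138.9 to 189.6 CPM at 3 h. In naive mice, Lcmt2, 4930413G21Rik, Znhit2 and D430041D05Rik had a mean nearer that at 3 h (Lcmt2 8.41, 6.22 and 8.9 CPM at 0, 1 and 3 h). Ppp1r10, Map3k5, Sdk2, Asic2 and Pde10a had one nearer that at 1 h (Map3k5 36.2, 35.9 and 41.2 CPM), and Esrrb lay midway. The 0 h levels were not tested.

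**Figure D4:**
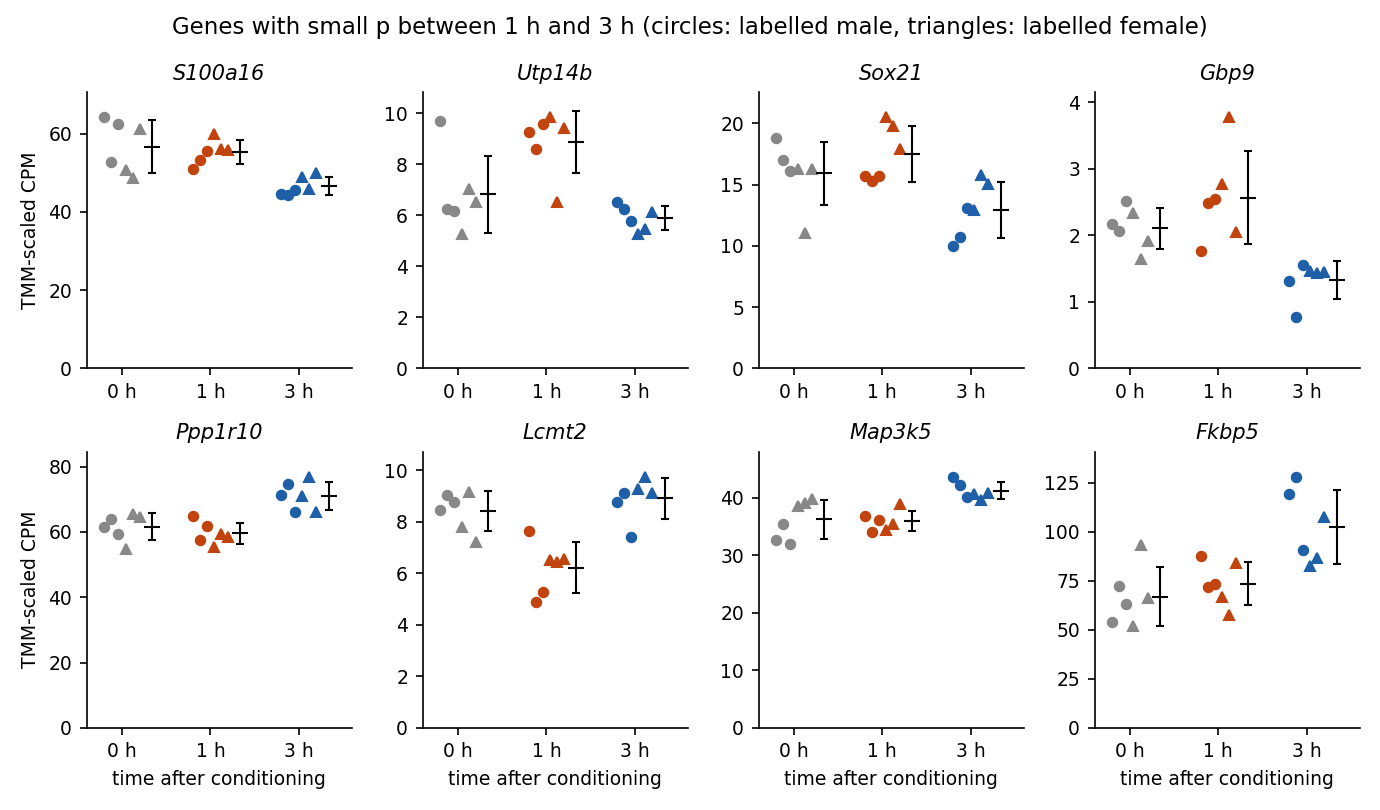
Each panel plots the level of 1 gene with a small p in TMM-scaled CPM (vertical axis) in each WT library at 0 h, 1 h and 3 h, with markers and bars as in the plot of activity genes. S100a16, Utp14b and Gbp9 (lower) and Ppp1r10 and Map3k5 (higher) have no overlap between 1 h and 3 h, with S100a16 at 44.3 to 49.9 CPM at 3 h against 51.1 to 60.1 CPM at 1 h.

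The splicing list had a median of -0.011, with 1 of 36 higher and 3 lower at an unadjusted p under 0.05. Its smallest p was that of Ppp1r10, the higher gene described above, followed by Clk1, a kinase of splicing regulators, at 108, 127 and 139 CPM at 1 h and 93.1, 104 and 110 CPM at 3 h (-0.28, SE 0.06, edgeR p 0.000492, adjusted p 0.373; DESeq2 adjusted p 0.0154). Cytosolic heat shock chaperones had a median of -0.08, and 18 of 23 lay below 0, 3 of them lower at an unadjusted p under 0.05, with Dnajb1 at -0.40 (p 0.0077), and -0.49 without the library labelled WT 1 h male 1 (DESeq2 adjusted p 0.000224). DESeq2 called 0 members of this list with all libraries and 3, all lower, without that one. By edgeR, 2 to 5 members were lower at an unadjusted p under 0.05 with each library left out in turn, and the median ran from -0.087 to -0.048. The 5 came without WT 1 h male 1, where 4.75% of all genes were lower. Endoplasmic reticulum chaperones had 22 of 24 above 0 and a median of 0.08, although only Pdia6 had an unadjusted p under 0.05 (0.17, p 0.0375). With WT 1 h male 1 left out the median was 0.03 with 0 higher, and with WT 1 h male 2 or WT 3 h male 1 left out 3 were higher (medians 0.10 and 0.11). Glutamate receptor subunits had 0 of 22 at that level in either direction, with a median of 0.06 (0.02 to 0.07 as each library was left out). Sterol synthesis genes (median -0.05, 3 of 26 lower) and presynaptic and neuropeptide genes (median -0.05, 3 of 24 lower and 1 higher) were led by Stard4 (-0.43, p 0.00984) and Sst (-0.13, p 0.00428). As each library was left out, sterol genes had 1 to 6 lower and a median from -0.098 to -0.003 (WT 1 h female 1 left out), and presynaptic genes 1 to 4 lower and a median from -0.06 to -0.009 (WT 1 h male 1 left out).

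Clustered protocadherin beta genes, which give neurons a surface identity, had a median of -0.13 with 5 of 22 lower and 1 higher. With WT 1 h female 2 left out the count was 10 lower, and without WT 1 h male 3 it was 3 lower and 3 higher with a median of -0.08, within a range of 3 to 10 lower over all libraries left out in turn. Of all genes, 3.97% were lower in the first of these fits and 3.27% lower and 2.97% higher in the second. Pcdhb8 measured 3.09, 4.92 and 6.04 CPM at 1 h and 1.24, 2.21 and 4.24 CPM at 3 h (log2 fold change -1.04, SE 0.23, edgeR p 0.000653, adjusted p 0.373; DESeq2 adjusted p 0.00545). These genes are near copies, and both Pcdhb8 and Pcdhb6 (-0.93, p 0.00492) overlap Gm37013, so their counts are uncertain. DESeq2 also called Pcdhb6 (adjusted p 0.0488), but not without the library labelled WT 1 h male 1 (0.0699). Numbered Zfp genes had 32 lower and 8 higher of 345 (median -0.03), led by Zfp948 at -0.36 (p 0.00214). As each library was left out there were 18 to 36 lower and 3 to 12 higher, with 18 lower and 3 higher without WT 1 h male 3 and 12 higher without WT 1 h male 1. Of all genes, 3.27% were lower and 2.97% higher in the former fit and 3.65% higher in the latter. Cytosolic ribosomal protein genes had a median of -0.02, with 1 of 83 lower and 2 higher. Single libraries moved these counts, to 0 to 4 lower and 0 to 4 higher. Without WT 1 h male 3 they were 4 lower and 3 higher (3.27% and 2.97% of all genes). The list included Rpl30 at 1.08 (SE 0.45, edgeR p 0.0363), but its libraries ran from 4.505 to 15.2 CPM at 1 h and from 3.996 to 28.2 CPM at 3 h. In naive mice Rpl30 already ran from 4.48 to 26.1 CPM. The many processed copies of such genes also make the value uncertain. Of 15 mitochondrially encoded genes, the ribosomal RNA genes mt-Rnr1 (-0.28, p 0.00717) and mt-Rnr2 (-0.27, p 0.00954) were lower at an unadjusted p under 0.05, and without the library labelled WT 1 h male 1 DESeq2 called both. The count lower was 5 without WT 3 h male 1 and 4 without WT 1 h male 3.

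The change in mutant mice, which share no library with the WT comparison, was set beside that in WT. In mutants edgeR tested 17247 genes and called 0, with 741 higher (4.3%) and 646 lower (3.75%) at an unadjusted p under 0.05. Of the 729 genes lower in WT at that level and tested in mutants, 74.8% had the same direction there, and of 543 higher 67.8%, against 56.4% of all 17122 genes tested in both. The test of the difference between genotypes (24 libraries, 17911 genes) called 0 genes, with 801 at an unadjusted p under 0.05 (4.47%). Immediate early transcription factors had a mutant median of -0.30, with 15 of 32 lower at that level. The log2 fold change in mutants was -1.08 for Fos (SE 0.45) and -0.76 for Egr1 (SE 0.24).

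These mutant values turn on the library labelled mutant 3 h female 2. Without it, edgeR called 18 of 17367 genes in mutants (0.104%), among them 3 immediate early transcription factors and 7 immediate early effectors. Fos then differed by -1.71 on the log2 scale (SE 0.16, edgeR adjusted p 0.00423), and 20 of 32 transcription factors of the list were lower at an unadjusted p under 0.05 (median -0.33), against 4.7% of all genes in that fit. With both discordant libraries left out, edgeR called 0 of 18000 genes for the difference between genotypes, with 302 above and 366 below at an unadjusted p under 0.05, and DESeq2 called 5.

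Interferon-induced genes lay mostly above 0 in mutants. Their median was 0.14, with 6 of 45 lying below 0, and 6 were higher at an unadjusted p under 0.05. Once mutant 3 h female 2 was left out, 13 of 45 lay below 0 and 4 were higher (median 0.11), against 4.29% of all genes higher. The difference between genotypes had an unadjusted p under 0.05 in 22 of the 45, each with the mutant value above that of WT, against 2.23% of all genes in that direction. Members are not independent, as the list average ran from -0.081 to 0.621 across WT libraries at 1 h. The 22 are therefore not separate results. The 2 genes with the smallest p for the difference between genotypes were Ddx60 and Rtp4, both outside the list. Rtp4 encodes a chaperone of receptor transport induced by interferon. Ddx60 had a low level, at 0.567, 0.865 and 1.72 CPM at 1 h and 0.367, 0.47 and 0.616 CPM at 3 h in WT. In mutants it ran from 0.447 to 0.818 CPM at 1 h and from 0.757 to 1.67 CPM at 3 h. The highest mutant value came from mutant 3 h female 2. The log2 fold change of Ddx60 was -1.06 (SE 0.30) in WT and 0.74 (SE 0.22) in mutants, a difference of 1.79 (edgeR p 6.67e-05). Rtp4, which overlaps Masp1, was also low, with WT medians of 1.51 CPM at 1 h and 1.04 CPM at 3 h. Its log2 fold changes were -0.66 (SE 0.18) and 0.41 (SE 0.18), a difference of 1.08 (edgeR p 0.000141). Next was Tpgs1, a subunit of tubulin polyglutamylase, at 0.14 in WT and -0.11 in mutants (difference -0.24, p 0.000203). The edgeR adjusted p of all 3 was 0.995, so no single gene's difference passed the threshold. Without both discordant libraries the difference had an unadjusted p under 0.05 in 22 of 45 again, all with the mutant value above, against 1.68% of all genes in that direction. The difference was then 1.74 for Ddx60 (SE 0.35) and 1.18 for Rtp4 (SE 0.25), each with an edgeR adjusted p of 0.501.

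Several marker lists of other cell types lay the same way in the difference between genotypes. The mutant value was above that of WT for 12 of 12 oligodendrocyte markers (median difference 0.226), 11 of 12 microglia markers (0.151), 13 of 15 endothelial markers (0.104), 11 of 13 pericyte and fibroblast markers (0.215), 11 of 13 striatum markers (0.133) and 12 of 12 choroid plexus markers (1.619), but for 7 of 12 astrocyte markers (0.039). The median difference was 0.006 over all genes and 0.483 over the interferon-induced genes, and medians of the neuronal lists of the hippocampus, neocortex and thalamus ran from -0.056 to 0.049 with all libraries. At an unadjusted p under 0.05, 1 microglia and 1 endothelial marker were above and no oligodendrocyte, pericyte and fibroblast, choroid plexus or astrocyte marker was. With both discordant libraries left out, the counts above were 9 of 12 for oligodendrocyte (0.105), 11 of 12 for microglia (0.158), 13 of 15 for endothelial (0.131), 11 of 13 for pericyte and fibroblast (0.202), 9 of 13 for striatum (0.066), 12 of 12 for choroid plexus (1.407) and 7 of 12 for astrocyte markers (0.034), while neocortex had 4 of 14 (-0.216) and thalamus 3 of 11 (-0.193), beside a median of 0.508 for the interferon-induced genes. The part of these cell types in the interferon difference was not tested.

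**Figure D5:**
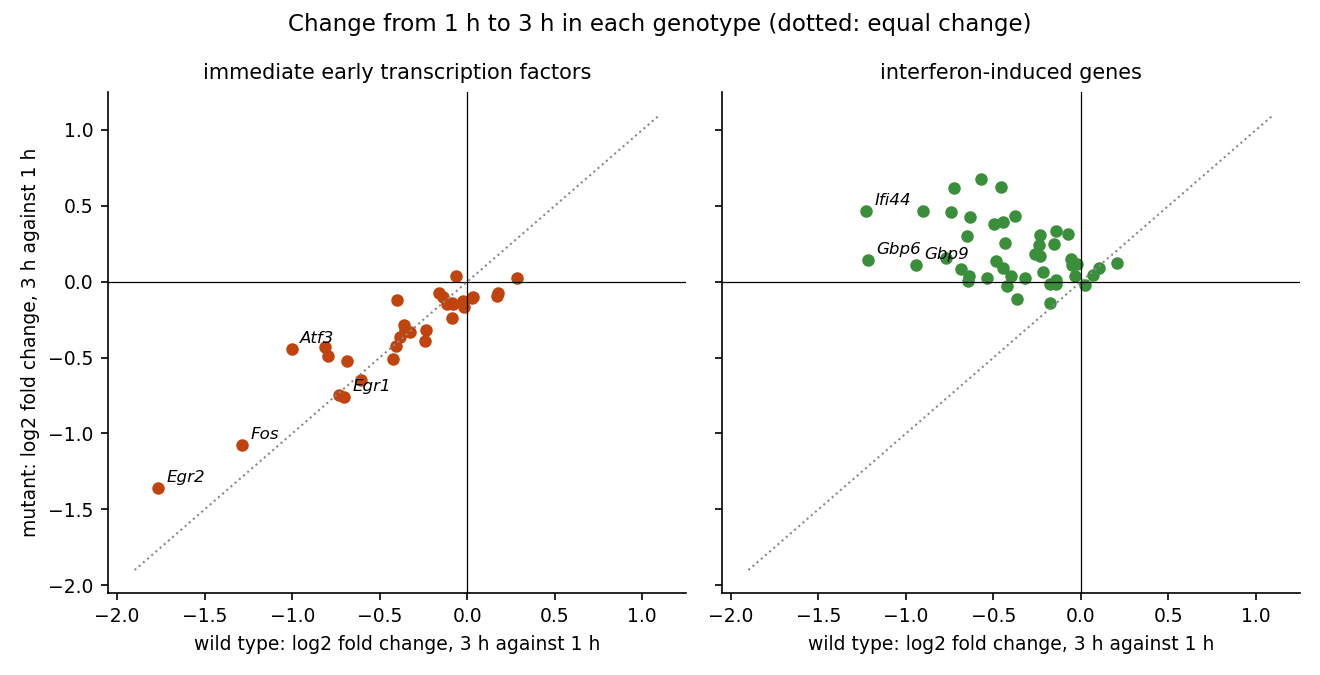
Each point is 1 gene of a list, with its log2 fold change of 3 h against 1 h in WT on the horizontal axis and in mutants on the vertical axis; the dotted line marks equal change. Immediate early transcription factors lie mostly at negative values in both genotypes (medians -0.29 and -0.30), with some off the line, such as Atf3 (-1.0 and -0.44), while interferon-induced genes lie mostly at negative WT and positive mutant values (medians -0.37 and 0.14).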

How the data were processed

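RNA was from dorsal hippocampus, 1 mouse per library, poly-A selected and sequenced in reads of 150 bases. The authors deposited raw gene counts per library, with STAR 2.7.8a, featureCounts 2.0.1 and GRCm38.p6 (mm10) named in their processing notes. The annotation release and strand setting are not given in the sources used here. Genes were named from RefSeq GRCm38.p6 (25275 of 27179 genes) or GENCODE (18), and 1886 stayed unnamed with 1.266% of counts. The first cohort was not analysed here. No libraries within a group held identical counts.

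WT 3 h was compared with 1 h in R 4.3.3 with edgeR 4.0.16 (TMM scaling, filterByExpr with a count minimum of 10, robust quasi-likelihood F test, labelled sex as covariate, Benjamini-Hochberg adjustment at 0.05) on 12 libraries, the mutant comparison on 12, and the difference between genotypes on 24. DESeq2 1.42.0 was an alternative. The edgeR fit of the WT comparison was also run on simulated counts, and the outcome is not reported here. SE was the log2 fold change over the root of F. Levels were TMM-scaled CPM over 36 libraries. Replicates are separate mice. Members and gene lists were chosen with earlier results of these data known. Named genes were the 10 with the smallest p in each direction, the 2 with the smallest p in each list, 8 activity genes (Fos, Fosb, Egr1, Egr2, Npas4, Arc, Nr4a1 and Bdnf) and the 3 with the smallest p for the difference between genotypes. Others named in the text were chosen after their values were seen. Alternatives covered the tool, scaling, count filter, covariate, libraries, a replicate block and leaving out each library.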

Additional observations from a re-analysis of the deposited data

Results flagged for a closer look

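Of 144 groups of 6 libraries tested for a single library far from the rest, 11 were singled out, and chance flags about 1 in 20 groups. At 1 h, Utp14b was low in the library labelled WT 1 h female 2 (6.53 CPM, nearest 8.61), Esrrb was high in WT 1 h male 1 (2.53 CPM, nearest 1.9), Gbp5 was low in WT 1 h male 2 (1.38 CPM, nearest 1.92) and Rpl13a was low in WT 1 h male 3 (56.6 CPM, nearest 72.3). At 3 h, Pprc1 and Gbp9 were low in WT 3 h male 2 (23.9 CPM, nearest 25.5, and 0.773 CPM, nearest 1.31). Zfp948 was low in WT 3 h male 3 (7.76 CPM, nearest 10.4). Npas4 was high in WT 3 h female 3 (18 CPM, nearest 8.62), where dentate granule cell markers were also high (summed 1055 CPM, nearest 843). Gria3 was high in WT 3 h female 2 (268 CPM, nearest 243). Pericyte and fibroblast markers were high in WT 3 h male 3 (summed 618 CPM, nearest 346).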

How the results depend on the processing

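The count of 0 genes called by edgeR held under RLE scaling, without a count filter, with at least 10 counts in every library, without sex or with sex read from counts, on all 18 WT libraries, without mitochondrial and rRNA genes, and with a replicate block. DESeq2 with sex called 20 genes higher and 45 lower, DESeq2 without a covariate 16 and 36, and edgeR on all 36 libraries 0 and 1. Leaving out each library in turn gave 0 to 1 higher and 0 to 2 lower. Alternatives chosen after seeing the data gave 4 higher and 17 lower (DESeq2 without a covariate, 18 WT libraries) and 51 higher and 146 lower (DESeq2 with sex, WT 1 h male 1 left out). For the difference between genotypes the count was 0 in all other settings run, the replicate block included, and 5 by DESeq2 without both discordant libraries, also chosen after seeing the data. The cause of these differences was not tested. Replicate numbers did not pair the libraries: correlations of same-numbered libraries ran from -0.084 to 0.03, and the block left the count of calls at 0. Of 59 named genes, 58 kept their direction in all alternatives run. Bdnf ran from -0.09 to 0.01 as each library was left out, and turned to 0.01 when WT 1 h male 3 or WT 3 h male 1 was left out.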
